A study of Mus musculus with 9 samples.

Results

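Genes of the Bcl-2 family, which set whether a cell survives or enters the mitochondrial path of apoptosis, were followed in CD11b+ cells of the mouse spleen. The members named were Bcl2, Bcl2l1 (Bcl-xL), Mcl1, Bax, Bak1, Bid, Bcl2l11 (Bim) and Bnip3. They were found as the probe sets whose platform gene symbol was exactly 1 of these 8 names. This gave 12 probe sets for 7 genes, out of 8251 genes with a probe set of a single symbol. The platform annotation used here pairs no probe set with Bax alone, and Bax was not analysed here. Of the 12 probe sets, 10 passed the filter on dim values and were tested, and each of the 7 genes kept at least 1.

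CD11b+ cells, the myeloid fraction that carries the integrin subunit encoded by Itgam, were sorted from spleens of female mice aged 8 to 12 weeks and hybridised to 9 Affymetrix MG-U74Av2 arrays, 1 sample per array. The first group of 3 samples came from tumor-free mice, a second group of 3 from tumor-bearing mice at time 0 (fresh cells), and the last 3 from tumor-bearing mice whose cells were kept for 24 h in complete medium (cultured cells). The labels name neither the tumor nor the mouse strain, and do not say whether replicates were separate mice or pools, so a p-value here speaks to the spread among these samples alone. No tumor-free sample was cultured, so tumor and culture cannot be told apart in the comparison of cultured with tumor-free cells.

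Proteins of the family fall into guardians that hold the mitochondrial outer membrane intact (Bcl-2, Bcl-xL, Mcl-1), effectors that perforate it (Bak, Bax), and BH3-only proteins that bind guardians or effectors and start the process (Bim, Bid). Bnip3 is an atypical BH3-only protein of the mitochondrial surface that is induced by low oxygen and takes part in the removal of mitochondria. Short-lived myeloid cells such as neutrophils depend on Mcl-1, and Bim is known as a main trigger of their death when growth factors are withdrawn.

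Signals were MAS5 values, scaled so that arrays have near-equal trimmed means of 100.06 to 100.08. The median signal per array ran from 33.4 to 42.8, and between 16.6% and 23.6% of values per array fell below 7.83, the offset added before taking log2. The CD11b gene Itgam read between 244 and 954 and was brighter than 93.6% of probe sets on the mean. Arrays are named by group and replicate number. In each group 1 array correlated least with its fellows: tumor-free 1, fresh 3 and cultured 3. As a check, the arrays were split at the median of their mean log2 spike-in signal into 5 of high signal (tumor-free 1, fresh 1 and 2, cultured 1 and 2) and 4 of low signal. The means ran from 8.99 to 10.497 and leave no clear gap at this split, which lies between 9.77 and 9.86. The ratio of 3' to 5' beta-actin signal was 1.58 to 2.57 in the high and 0.99 to 1.35 in the low class. It splits the arrays in the same way, so class and a high or low actin ratio cannot be told apart. Within the high class the tumor-free group is a single array, and within the low class the fresh and the cultured group are a single array each, assumed in the fits to vary like the others. Without the least correlated array of each group, all tumor-free arrays left are of the low class and all fresh and cultured arrays left of the high class, so that fit cannot tell tumor-free status and class apart.

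Bcl2l11 was the member that changed. At its brightest probe set it rose about 4-fold in fresh tumor-bearing cells over tumor-free cells, and after 24 h of culture the mean lay between these levels. Another probe set of the gene, 99418_at, gave a ratio of 1.39 and did not pass, and with the median of its probe sets the gene was not called. No other member gene passed the test in any of the 3 comparisons. The guardians Bcl2, Bcl2l1 and Mcl1 did not pass, and in fresh against tumor-free cells their 95% intervals on the log2 scale ran from -0.55 to 0.88, from -0.95 to 1.14 and from -1.14 to 0.72.

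**Figure D1:**
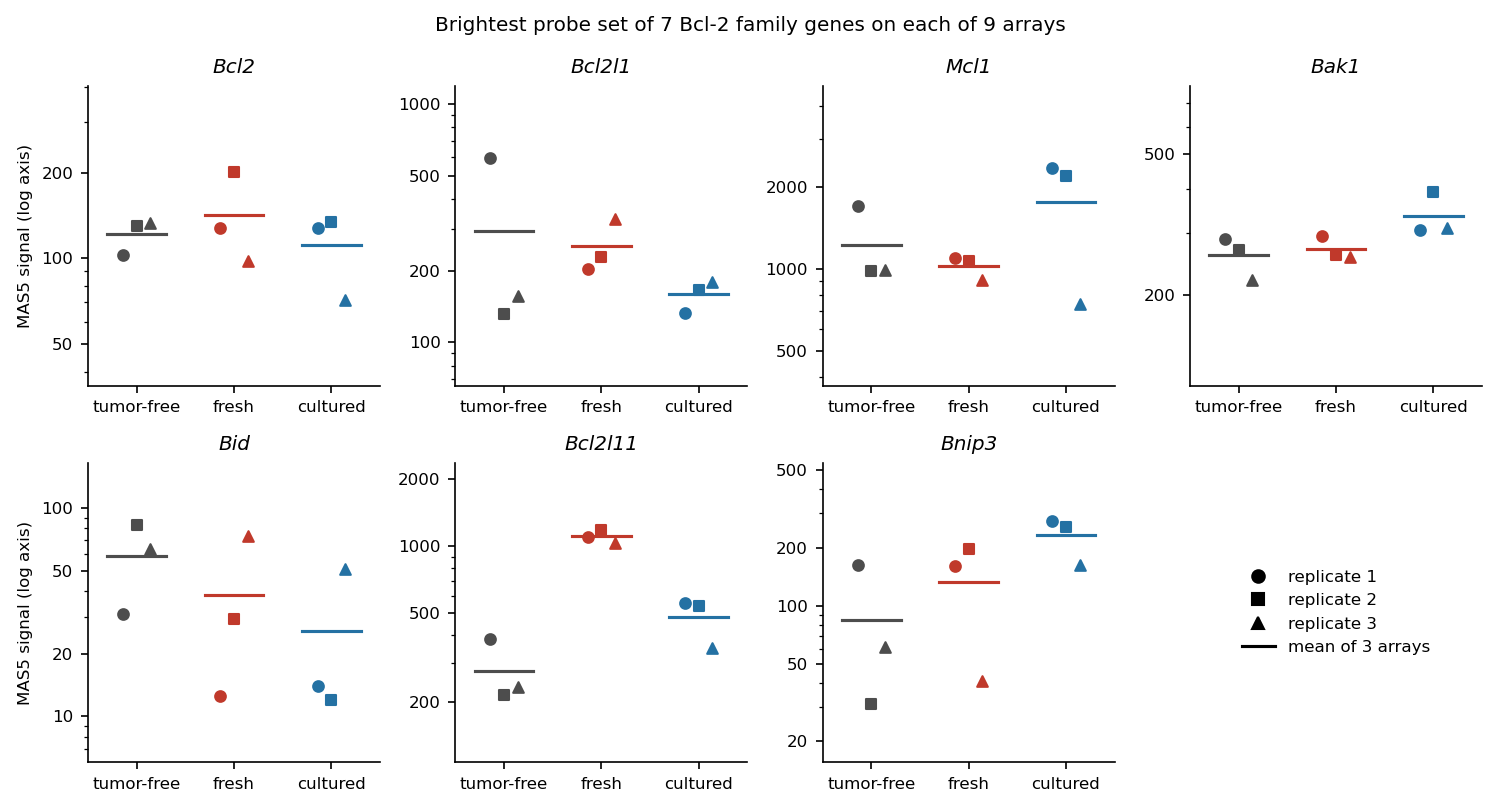
MAS5 signal (log axis, arbitrary units) of the brightest probe set of each of 7 Bcl-2 family genes on each of 9 arrays, with 3 arrays per group, symbols for replicate numbers and a line at the group mean. Bcl2l11 read 1036 to 1191 on the 3 fresh arrays, above the 214 to 382 of the tumor-free arrays and the 348 to 559 of the cultured arrays, while the groups of Bcl2 and of Mcl1 overlap in each pair.

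In the plot of member signals by array, the fresh arrays stand apart for Bcl2l11, while its tumor-free and cultured arrays overlap. Bak1, Bcl2l1 and Bnip3 each have at least 1 pair of groups without overlap, and Bcl2, Mcl1 and Bid have none. Of all probe sets tested, 22.4% did not overlap in fresh against tumor-free cells. The shares were 22.2% in cultured against fresh and 18.5% in cultured against tumor-free cells. The axes differ between panels, and a level in one panel cannot be set against a level in another, because probe sets differ in how strongly they bind.

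Bcl2l11 encodes Bim, a BH3-only protein that binds the guardians and can activate Bak and Bax directly. Its brightest probe set, 100988_at, read 382, 214 and 234 on the tumor-free arrays 1 to 3. On the fresh arrays it read 1105, 1191 and 1036, and on the cultured arrays 559, 542 and 348. The 3 fresh arrays stood above the other 6, and the tumor-free and cultured groups overlapped because tumor-free 1 exceeded cultured 3.

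Between fresh and tumor-free cells the log2 fold change of this probe set was 2.02 ± 0.29 (SE, n = 3 and 3; 95% interval 1.39 to 2.65; limma, Benjamini-Hochberg adjusted p = 0.00502). The ratio of the mean signals was 4.01. The absolute change was larger than that of 98.2% of the probe sets tested. By this probe set 1 of the 7 genes rose in this comparison, where 1.9% of all 8695 probe sets passed, 0.943% rising and 0.955% falling.

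The dimmer probe set 99419_g_at read 7.62, 9.11 and 3.71 on the tumor-free arrays, 56.2, 39.9 and 73.8 on the fresh arrays, and 29.8, 18.95 and 19.5 on the cultured arrays. Here the 3 groups did not overlap at all, with fresh highest and tumor-free lowest. A pair of the tumor-free values lay below the offset of 7.83, so the fitted log2 difference of fresh from tumor-free cells depends on the offset and on the setting: it was 2.12 (adjusted p = 0.00897) and ran from 1.35 to 2.73 over the alternatives. The probe set passed the filter on dim values through its fresh arrays and was dropped where the fit held the tumor-free and cultured arrays alone. Its call is therefore a description, not further support for the change at 100988_at.

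The other probe set, 99418_at, did not move in the same measure. It read 119.8, 41.1 and 82.7 on the tumor-free arrays, 123, 124 and 92.3 on the fresh arrays, and 109, 60.6 and 74.6 on the cultured arrays. Its groups overlapped, and its log2 fold change in fresh over tumor-free cells was 0.54 ± 0.36 (SE; 95% interval -0.26 to 1.34; adjusted p = 0.472). The letter g in a probe set name marks probes shared with another probe set of the array, so 99419_g_at may not be independent of the others. With the median of the 3 probe sets in place of the brightest, which is 99418_at here because its signal was the middle one on each array, no member gene passed (0 of 7), and the Bcl2l11 change was 0.54 (adjusted p = 0.447).

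**Figure D2:**
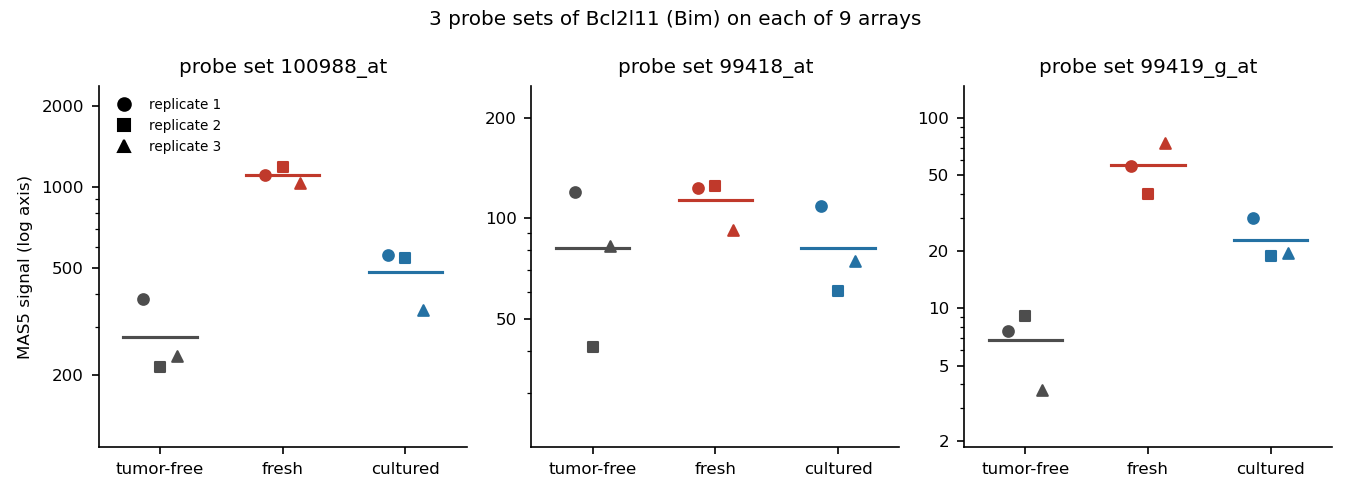
MAS5 signal (log axis, arbitrary units) of the 3 probe sets of Bcl2l11 on each of 9 arrays, with symbols for replicate numbers and a line at the mean of 3 arrays. Fresh arrays stand above tumor-free arrays at 100988_at and 99419_g_at, whereas at 99418_at the fresh values of 92.3 to 124 overlap the tumor-free values of 41.1 to 119.8.

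The plot of the Bcl2l11 probe sets puts the disagreement side by side: 100988_at and 99419_g_at have the same order of group means, fresh above cultured above tumor-free. At 99418_at the tumor-free and cultured means were 81.2 and 81.2, below the fresh mean of 113.

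After 24 h in medium, 100988_at was lower than in fresh cells on each of the 3 arrays, by a log2 fold change of -1.22 ± 0.29 (SE; 95% interval -1.85 to -0.58). The adjusted p was 0.0502, just short of the threshold of 0.05, so no change is called. This call turns on the setting: 12 of 24 alternatives passed, with values from -1.55 to -1.0 over the 24. Among them were the fit without tumor-free 1 (adjusted p = 0.014) and the fit that blocks on spike-in class (adjusted p = 0.00885). At 99419_g_at the difference was -1.06 ± 0.34 (SE; adjusted p = 0.135), and at 99418_at it was -0.47 ± 0.36 (SE; adjusted p = 0.598).

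Cultured cells still read higher than tumor-free cells at 100988_at, by 0.80 ± 0.29 on the log2 scale (SE; 95% interval 0.17 to 1.43), with an adjusted p of 0.229. Without tumor-free 1, the array that overlaps the cultured group, the difference was 1.05 (adjusted p = 0.0415). At 99419_g_at, which passed the filter through its fresh arrays, the difference was 1.06 ± 0.34 (SE, limma adjusted p = 0.183). These groups did not overlap, as was so for 18.5% of all probe sets tested. At 99418_at the difference was 0.072 ± 0.36 (SE, limma adjusted p = 0.957). The 3 comparisons share arrays, so these values are not independent of those for fresh cells.

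**Figure D3:**
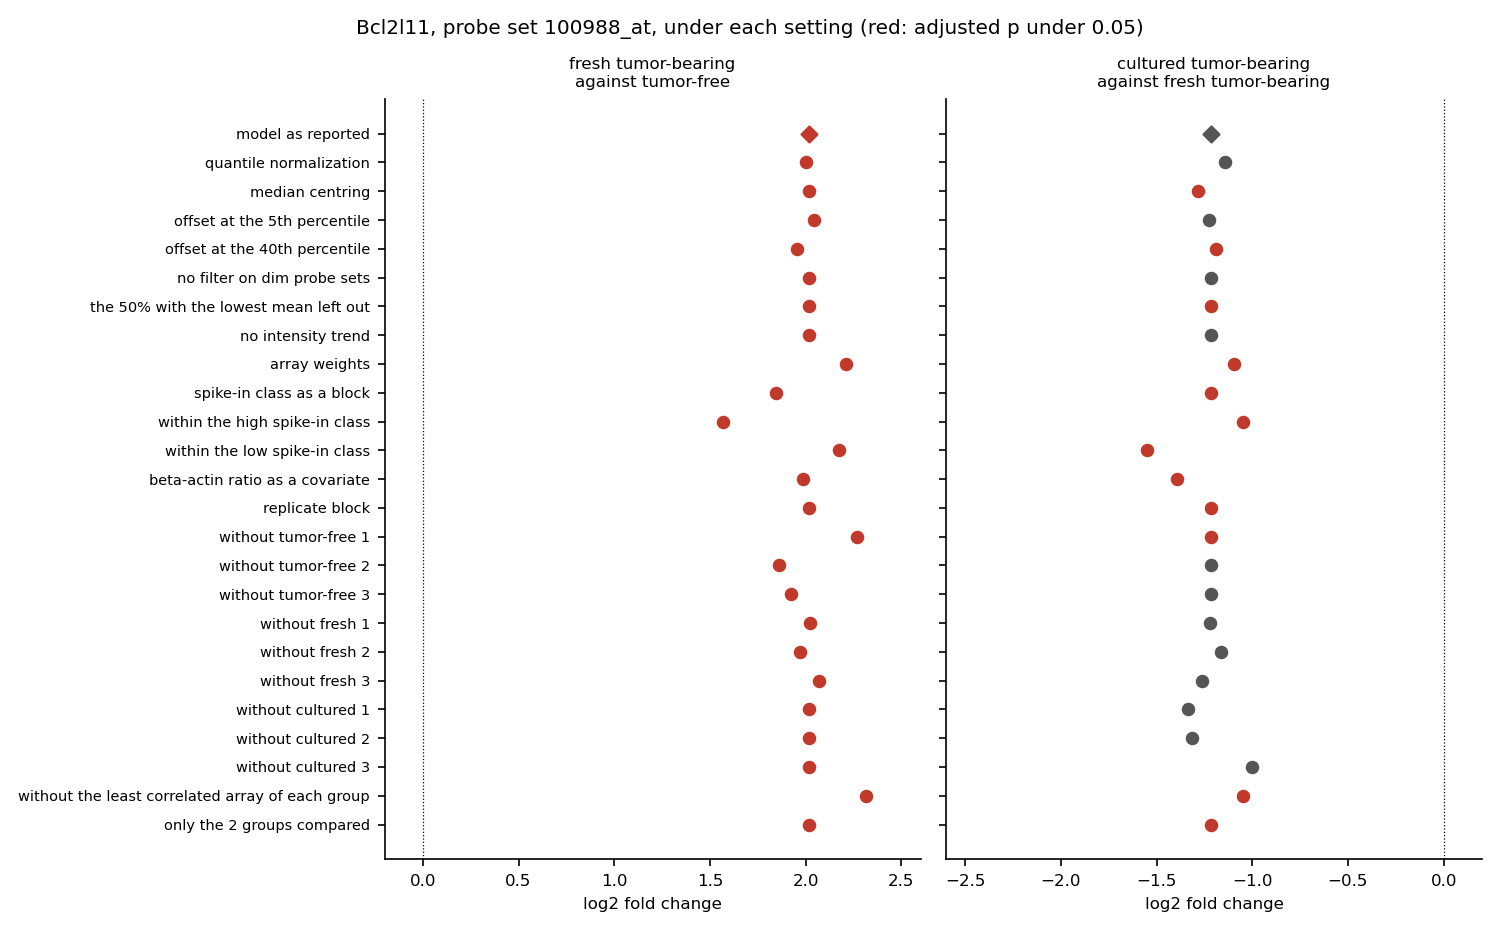
Log2 fold change of Bcl2l11 probe set 100988_at under the model as reported (diamond) and 24 alternative settings (circles), for fresh against tumor-free cells (left) and cultured against fresh cells (right), in red where the adjusted p was under 0.05. On the left the values run from 1.57 to 2.32 and all are red; on the right they run from -1.55 to -1.0 and 12 of the 24 alternatives are red.

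As the plot of settings shows, the higher level of 100988_at in fresh cells passed under each of the 24 alternatives run on this probe set, at adjusted p up to 0.0378. Taking the median of the gene's probe sets instead lost the call, as given above. With the spike-in class as a term the change was 1.85 (adjusted p = 0.00172). Among the 5 arrays of high spike-in signal, where tumor-free 1 stands alone for its group, it was 1.57. Without the least correlated array of each group it was 2.32, a fit in which tumor-free status and spike-in class cannot be told apart.

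Several cell type marker lists moved in the same comparison. Among all probe sets tested, 1.9% passed there (limma) and 16.7% had an unadjusted p under 0.05. Of 8 tested pancreas acinar genes, 7 rose in fresh over tumor-free cells, and their summed signal was 12006 to 20129 in fresh, 492 to 757 in tumor-free and 421 to 1012 in cultured samples. Of 9 tested macrophage genes, 5 fell (C1qa, C1qb, Mrc1, Aif1 and Hmox1), with sums of 2030 to 2235 in fresh and 4452 to 13863 in tumor-free samples. Erythroid sums were 4746 to 6509 in fresh against 541 to 2300 in tumor-free samples. Most of each sum was 1 gene, Hba-a1, at 4203 to 5857 in fresh and 336 to 2028 in tumor-free samples. Of the 5 tested erythroid genes 0 passed (limma), and 3 had an unadjusted p under 0.05. Neutrophil sums were 47899 to 60626 in fresh, 33435 to 48250 in tumor-free and 15893 to 44199 in cultured samples. The median log2 change of the 10 tested genes was 1.19 in fresh against tumor-free cells. Of these 10, 1 passed (limma), Cxcr2, which was lower in fresh cells, against the direction of that median. At an unadjusted p under 0.05 the list held 3, the others being Mmp8 (2.53) and Elane (1.36), both higher in fresh cells. The part of these marker lists in the Bcl2l11 result was not tested. In such bulk samples, a change in the share of a cell type and a change in RNA per cell cannot be told apart.

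Of 10 myeloid genes 1, Csf3r, fell in fresh against tumor-free cells, and their sum was 16999 to 18516 in tumor-free, 19377 to 20166 in fresh and 16511 to 24226 in cultured samples. No gene passed in fresh against tumor-free cells (limma) among the B cell, T cell, NK cell, plasma cell, platelet and dendritic cell lists. These held 7, 4, 4, 6, 2 and 6 tested genes. At an unadjusted p under 0.05 they held 1, 0, 1, 2, 0 and 1. Over all probe sets tested, 1.9% passed and 16.7% had such a p-value. No marker read 0 on any array. Several markers differed widely within the tumor-free group. Camp read 150 on tumor-free 1 against 8809 and 10458 on tumor-free 2 and 3. At the brightest probe sets of Vcam1 and Ms4a1 these values were 55.2 against 1975 and 2315.5, and 34.8 against 324 and 272.5. Mmp8 and Cd14 went the other way, at 1640 against 141 and 218, and 7644 against 2005 and 1287. The part of this difference in the marker calls was not tested.

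Of the 6370 other genes compared, the 4 whose log2 profile over the 9 arrays lay closest to that of Bcl2l11 were Kcnn4, Id2, Fam110a and Rdh11. Their root mean square differences from it were 0.23, 0.34, 0.34 and 0.35 log2 units, against a spread of 0.87 for Bcl2l11 around its own mean. Kcnn4, a calcium-activated potassium channel, read 53.7 to 66.5 in tumor-free, 219 to 267 in fresh and 86.3 to 102 in cultured samples. Id2, a repressor of basic helix-loop-helix factors, read 1130 to 1534, 3324 to 4239 and 2325 to 2898 in the same order. The groups of Kcnn4 and Id2 did not overlap, as at 99419_g_at. Tumor-free and cultured samples did overlap for Fam110a, at 11.4 to 35.3 and 29.2 to 37.5. They also overlapped for Rdh11, at 232 to 356 and 302 to 413. All 4 genes were picked for closeness to the brightest Bcl2l11 probe set, so their group pattern follows from that choice. The profile of 99418_at was not used. The Rdh11 probe set carries the suffix f, which marks probes shared within a gene family.

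Bim is known as a target of FOXO factors, which Akt signaling holds out of the nucleus, and Bnip3 as a target of hypoxia-inducible factor. Their promoter windows are shown because these regulators are among the genes measured below. All 8 member names matched RefSeq promoter windows of GRCm38.p6, 11 windows in all, each running from 250 bases before to 50 bases after a start. Capitals mark a FOXO core (TGTTTAC, or GTAAACA on the other strand) in the Bcl2l11 window at chr2:128125788-128126087, plus strand. In the Bnip3 window at chr7:138909457-138909756, minus strand, they mark the hypoxia core (ACGTG, or CACGT on the other strand), whose 2 matches overlap.
Bcl2l11: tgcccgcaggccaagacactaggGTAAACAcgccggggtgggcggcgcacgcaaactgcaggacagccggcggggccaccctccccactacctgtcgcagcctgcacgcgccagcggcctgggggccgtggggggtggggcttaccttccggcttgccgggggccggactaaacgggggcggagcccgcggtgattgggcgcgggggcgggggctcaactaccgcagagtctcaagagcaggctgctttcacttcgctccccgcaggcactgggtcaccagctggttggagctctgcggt
Bnip3: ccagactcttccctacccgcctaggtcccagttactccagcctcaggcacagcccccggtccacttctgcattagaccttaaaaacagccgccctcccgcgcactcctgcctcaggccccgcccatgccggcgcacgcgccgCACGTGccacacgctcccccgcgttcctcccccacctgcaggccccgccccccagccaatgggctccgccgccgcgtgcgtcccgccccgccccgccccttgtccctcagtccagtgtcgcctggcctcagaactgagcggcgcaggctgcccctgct

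The FOXO match begins 227 bases before the start, and 3.65% of all 32851 promoter windows of this length hold that motif on either strand. A second Bcl2l11 window, at chr2:128127325-128127624 on the plus strand, holds no such match. In the Bnip3 window the matches begin 108 and 107 bases before the start. The hypoxia core is also in the Bax window, with 4 matches, in no other member window, and in 19.6% of all windows. The AP-1 motif (TGACTCA, or TGAGTCA) was in none of the 11 member windows and in 5.2% of all windows. These are matches of letters, and binding was not measured here.

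Foxo3, a FOXO factor that activates Bim, read 287, 148 and 140.4 on the tumor-free arrays, 79.2, 95.5 and 92.9 on the fresh arrays, and 313, 274 and 139.9 on the cultured arrays. Fresh arrays were below all other arrays. The log2 difference was -0.97 ± 0.35 (SE; adjusted p = 0.200) in fresh against tumor-free cells and 1.30 ± 0.35 (SE; adjusted p = 0.0832) in cultured against fresh cells. Neither is called, though the latter passed in 7 of 24 alternatives, among them those without tumor-free 1 (adjusted p = 0.0312) and without cultured 3 (adjusted p = 0.0239).

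Bid is a BH3-only protein that caspase-8 cleaves, which links death receptors to mitochondria. It read 31.0, 82.7 and 63.8 on the tumor-free arrays, 12.6, 29.2 and 73.1 on the fresh arrays, and 13.98, 12.0 and 50.9 on the cultured arrays. The groups overlapped in each pair. Its log2 difference was -0.68 ± 0.57 (SE; adjusted p = 0.564) in fresh and -1.10 ± 0.57 (SE; adjusted p = 0.432) in cultured against tumor-free cells, and -0.42 ± 0.57 (SE; adjusted p = 0.791) in cultured against fresh cells.

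Bid separated by spike-in class, which is also the split by beta-actin ratio, and not by group. The 5 arrays of high spike-in signal read 12.0 to 31.0 and the 4 of low signal 50.9 to 82.7, with no overlap. Such a separation was seen for 8.2% of all tested probe sets. Without the least correlated array of each group, the Bid difference from tumor-free cells was -1.55 in fresh (adjusted p = 0.0228) and -1.95 in cultured cells (adjusted p = 0.00942). In that fit the tumor-free arrays are all of the low and the others all of the high class, so group and class cannot be told apart.

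Bak1 encodes an effector that oligomerises in the mitochondrial membrane. It read 288, 269 and 220.5 on the tumor-free arrays, 293, 259 and 255 on the fresh arrays, and 305, 391 and 309.5 on the cultured arrays. All 3 cultured arrays lay above the other 6, by a small margin. The log2 difference of cultured cells was 0.30 ± 0.22 (SE; 95% interval -0.19 to 0.80; adjusted p = 0.573) from fresh and 0.36 ± 0.22 (SE; 95% interval -0.13 to 0.86; adjusted p = 0.52) from tumor-free cells. Between fresh and tumor-free cells it was 0.059 ± 0.22 (SE; adjusted p = 0.912).

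Mcl1 encodes a short-lived guardian. Its probe set read 1699, 982 and 989.98 on the tumor-free arrays, 1097, 1071 and 907 on the fresh arrays, and 2362, 2208 and 741 on the cultured arrays. A pair of cultured arrays was the highest of all 9 and the remaining one the lowest. The log2 difference was 0.62 ± 0.42 (SE; adjusted p = 0.535) in cultured against fresh cells, 0.41 ± 0.42 (SE; adjusted p = 0.716) in cultured against tumor-free cells, and -0.21 ± 0.42 (SE; adjusted p = 0.828) in fresh against tumor-free cells.

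Mcl1 also separated by spike-in class, with 1071 to 2362 on the 5 arrays of high signal and 741 to 989.98 on the 4 of low signal. Without the least correlated array of each group, cultured cells stood 1.07 above fresh cells (adjusted p = 0.00242) and 1.21 above tumor-free cells (adjusted p = 0.000806). In the latter, group and spike-in class cannot be told apart. Among the 4 arrays of low spike-in signal the signs turned, to -0.29 between the single arrays cultured 3 and fresh 3, and to -0.41 between cultured 3 and 2 tumor-free arrays. The other 8 tested member probe sets were not separated by class.

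Bcl2 encodes the founding guardian. Its brightest probe set, 98870_at, read 102, 130.02 and 133 on the tumor-free arrays, 128, 201 and 97.7 on the fresh arrays, and 128, 134 and 71.3 on the cultured arrays. The 3 groups overlapped. The log2 differences were 0.16 ± 0.33 (SE; adjusted p = 0.826) in fresh against tumor-free, -0.33 ± 0.33 (SE; adjusted p = 0.700) in cultured against fresh, and -0.16 ± 0.33 (SE; adjusted p = 0.874) in cultured against tumor-free cells. The probe set 98869_g_at read 55.2 to 69.0, 8.87 to 59.9 and 35.1 to 88.4 in tumor-free, fresh and cultured samples, and fresh 3 was its lowest array. Its differences of -0.77, 0.56 and -0.21 in the same order of comparisons did not pass. The remaining probe set, 98868_at, was too dim to be tested, at 9.35 to 21.8 over the 9 arrays.

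Bcl2l1 encodes Bcl-xL and, by another splice form, the death-promoting Bcl-xS; the labels do not say which form a probe set reads. At 99027_at it read 595, 131.5 and 156 on the tumor-free arrays, 204, 228 and 328.5 on the fresh arrays, and 132, 166 and 179 on the cultured arrays. Cultured arrays were all below fresh arrays, and tumor-free 1 was the highest of all 9. The log2 difference was -0.63 ± 0.48 (SE; adjusted p = 0.583) in cultured against fresh cells and 0.095 ± 0.48 (SE; adjusted p = 0.937) in fresh against tumor-free cells. The latter rests on tumor-free 1: without that array it was 0.76, and within the high spike-in class, where tumor-free 1 stands alone for its group, it was -1.43. Cultured against tumor-free cells gave -0.53 ± 0.48 (SE; adjusted p = 0.666), and 0.13 without tumor-free 1. The probe set 99026_at, at 2.10 to 18.7, was too dim to be tested.

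**Figure D4:**
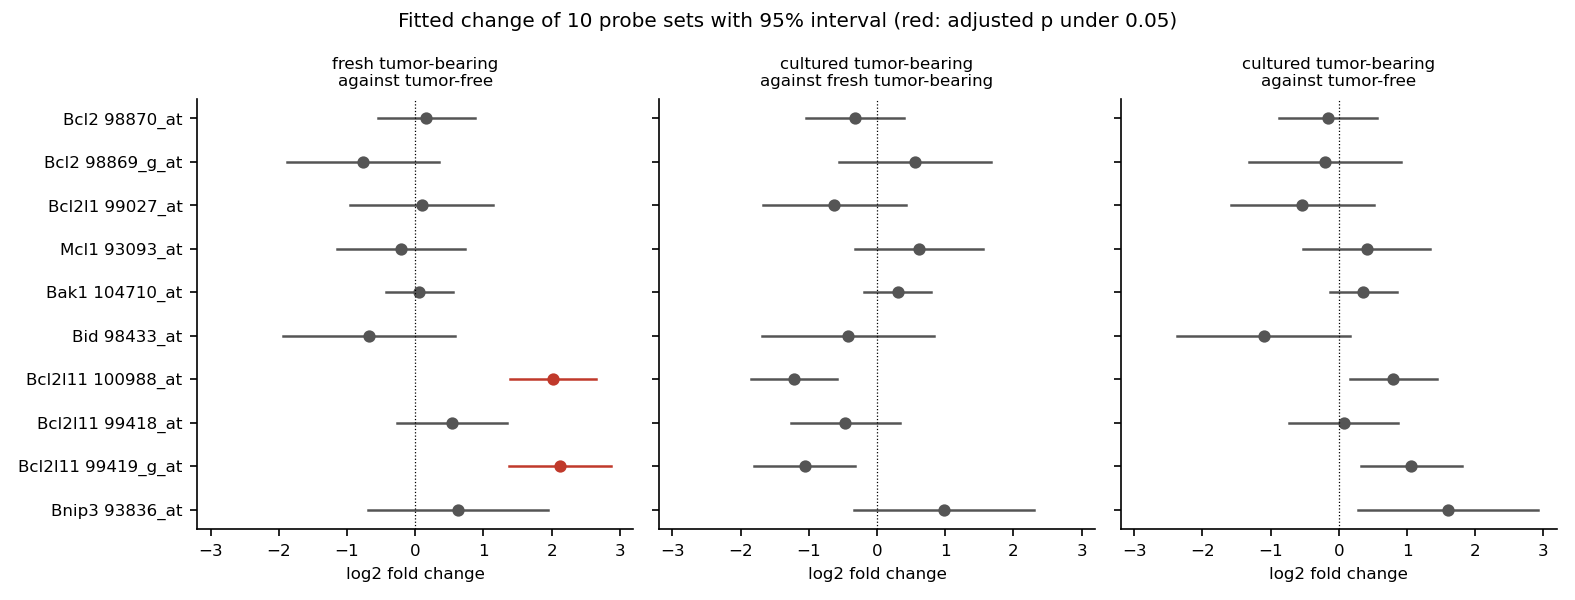
Log2 fold change (point) with its 95% interval (line) for the 10 tested probe sets of 7 Bcl-2 family genes in the 3 comparisons, in red where the adjusted p was under 0.05. Of the 30 intervals, the red ones belong to Bcl2l11 100988_at (2.02) and 99419_g_at (2.12) in fresh against tumor-free cells.

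The plot of fitted changes shows how wide the intervals of the uncalled members are: Bak1 had the narrowest and Bnip3 and Bid the widest. In the comparison of cultured with fresh cells 0 of 10 member probe sets passed (limma; 2 at an unadjusted p under 0.05), where 2.69% of all probe sets passed and 16.3% had such an unadjusted p. In cultured against tumor-free cells 0 of 10 passed (3 at an unadjusted p under 0.05), beside 1.23% and 14.1% of all. The groups did not overlap at 2, 4 and 3 of the 10 member probe sets in fresh against tumor-free, cultured against fresh, and cultured against tumor-free cells. Among all probe sets tested, the corresponding shares were 22.4%, 22.2% and 18.5%. The median log2 change of the 7 genes was 0.095, -0.33 and 0.36, beside 0.0093, 0.024 and 0.051 over all probe sets tested.

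Bnip3 read 162, 31.0 and 61.0 on the tumor-free arrays, 161, 196 and 40.7 on the fresh arrays, and 275, 256 and 163 on the cultured arrays. The 3 cultured arrays lay above all tumor-free arrays, though tumor-free 1 and cultured 3 differed by little, and the cultured and fresh groups overlapped. In cultured against tumor-free cells the log2 difference was 1.60 ± 0.60 (SE; 95% interval 0.28 to 2.93; adjusted p = 0.249), larger in size than that of 97.0% of probe sets. It was 0.98 ± 0.60 (SE; adjusted p = 0.472) in cultured against fresh cells and 0.63 ± 0.60 (SE; adjusted p = 0.614) in fresh against tumor-free cells.

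Single arrays weigh heavily on Bnip3. The difference of cultured from tumor-free cells passed in 4 of 24 alternatives. Leaving out 1 array gave 1.11 to 2.17 (limma, adjusted p up to 0.634). It passed without tumor-free 1, at 2.17 (adjusted p = 0.0459), where the tumor-free arrays left are all of the low spike-in class. Without the least correlated array of each group it was 2.40 (adjusted p = 0.000945). With those same arrays left out, Bnip3 was also higher in fresh than in tumor-free cells, by 1.84 (adjusted p = 0.0035). In both comparisons without those arrays, group and spike-in class cannot be told apart. Its signal was 161 to 275 on the arrays of high and 31.0 to 163 on those of low spike-in signal.

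**Figure D5:**
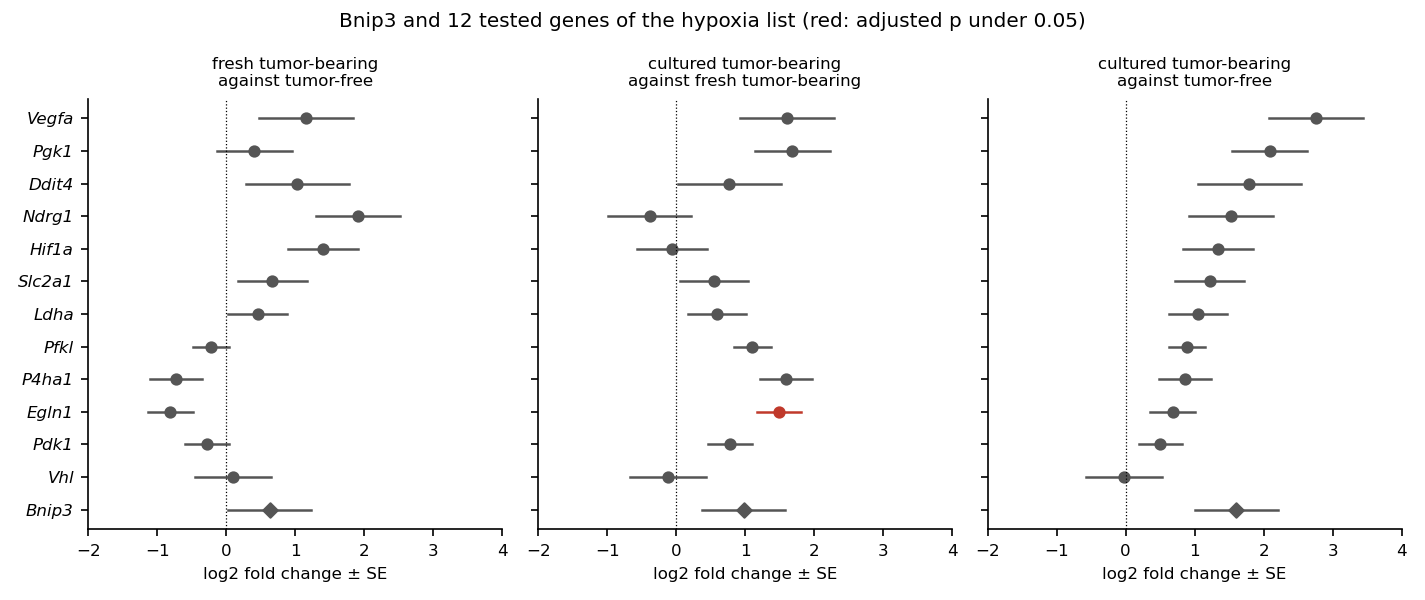
Log2 fold change (point) ± SE (line) of 12 tested hypoxia genes and of Bnip3 (diamond) in the 3 comparisons, in red where the adjusted p was under 0.05. Egln1 at 1.49 in cultured against fresh cells is the red point, and in cultured against tumor-free cells the points of 11 of the 12 genes and of Bnip3 lie above 0.

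The plot of the hypoxia genes places Bnip3 beside other genes of the low-oxygen response and their regulators. Of the 12 tested, Egln1, the oxygen-sensing prolyl hydroxylase, rose in cultured over fresh cells by 1.49 ± 0.32 on the log2 scale (SE; adjusted p = 0.0356), a call lost in 10 of 24 alternatives, among them those without tumor-free 2 or 3, fresh 1 or 2, or cultured 1 or 2 (adjusted p up to 0.127). It read 92.6, 88.2 and 115 on the tumor-free arrays, 64.9, 29.6 and 72.7 on the fresh arrays, and 205, 151 and 137 on the cultured arrays. At an unadjusted p under 0.05 the list held 3, 6 and 9 of 12 genes in fresh against tumor-free, cultured against fresh and cultured against tumor-free cells, beside 16.7%, 16.3% and 14.1% of all probe sets. Its median change was 0.43, 0.78 and 1.13.

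Vegfa, the angiogenic factor, had the largest difference of cultured from tumor-free cells in that list, 2.76 ± 0.68 (SE; adjusted p = 0.0898), with signals of 397, 174 and 51.8 against 41.3, 2.89 and 18.8. In fresh against tumor-free cells Ndrg1, a stress-response gene, had the largest, 1.91 ± 0.61 (SE; adjusted p = 0.141). Neither is called a change. Vegfa passed in 9 of 24 alternatives, among them those without tumor-free 1 (adjusted p = 0.0205) and without cultured 3 (adjusted p = 0.0196). Ndrg1 passed in 6, among them that without tumor-free 1 (adjusted p = 0.00813).

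Upstream of the family, death receptors were measured by 9 tested genes. Fas, a receptor that starts the extrinsic path, rose in fresh over tumor-free cells by 2.67 ± 0.59 (SE; adjusted p = 0.0475), reading 128, 109 and 297 against 59.9, 19.0 and 2.62. The groups did not overlap. The tumor-free value of 2.62 lay below the offset of 7.83, so the size of this difference depends on the offset. Over the 24 alternatives it ran from 0.90 to 4.19. The call was lost in 18 of them, among them each removal of a single array other than tumor-free 1. Daxx, a Fas-binding nuclear protein, rose in cultured over fresh cells by 1.72 ± 0.34 (SE; adjusted p = 0.0226), reading 137, 200.4 and 380.3 against 68.7, 68.9 and 48.2. That call was lost without any 1 of the fresh arrays or without cultured 2 (adjusted p up to 0.0828). In fresh against tumor-free cells 1 of 9 passed, beside 1.9% of all probe sets, and 5 had an unadjusted p under 0.05, beside 16.7%. In cultured against fresh cells 1 passed, beside 2.69%, and 2 had such a p, beside 16.3%. In cultured against tumor-free cells 0 of 9 passed (limma), with Fas at 2.34 (adjusted p = 0.0911), and 2 had such a p, beside 14.1%.

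Among 16 tested genes of growth factor and survival signaling, the G-CSF receptor gene Csf3r fell. At its brightest probe set it read 965, 1596 and 1351 on the tumor-free arrays, 530.4, 473 and 528 on the fresh arrays, and 355, 278 and 491 on the cultured arrays. Its log2 difference from tumor-free cells was -1.31 ± 0.28 in fresh (SE; adjusted p = 0.0413) and -1.79 ± 0.28 in cultured cells (SE; adjusted p = 0.0133). The first call was lost in 10 of 24 alternatives, among them those without tumor-free 2 or 3, any 1 fresh array, or cultured 1 or 2 (adjusted p up to 0.202). The second was lost in 5, among them those without tumor-free 2 or 3 or cultured 1 or 2. A further Csf3r probe set, 95807_at, read 187 to 329 in fresh and 216 to 423 in tumor-free samples, which overlap. The remaining one, 95808_g_at, read 352 to 402 in fresh and 471 to 946 in tumor-free samples, which do not. In cultured against fresh cells 0 of the 16 passed (limma), Foxo3 having the largest difference. At an unadjusted p under 0.05 the list held 4 genes in each of the 3 comparisons. Of all probe sets, 16.7% had such a p in fresh against tumor-free, 16.3% in cultured against fresh and 14.1% in cultured against tumor-free cells.

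The 12 tested kinase and ER stress regulators of BH3 proteins include Jun, an AP-1 subunit downstream of the kinase JNK. Jun fell in fresh against tumor-free cells by 1.99 on the log2 scale (SE 0.36; adjusted p = 0.0178), reading 105, 57.1 and 72.4 against 559, 270.03 and 228. In cultured against tumor-free cells it fell by 2.56 (SE 0.36; adjusted p = 0.00834), with cultured signals of 39.7 to 56.5. The first difference no longer passed without tumor-free 2 (adjusted p = 0.0537) and without fresh 2 (adjusted p = 0.0959), and the second with only the 2 groups compared in the fit (adjusted p = 0.0533). In cultured against fresh cells 0 of 12 passed (limma), with Fos, the partner of Jun, at 0.85 ± 0.52 (SE, adjusted p = 0.468). At an unadjusted p under 0.05 the list held 2 genes in fresh against tumor-free cells, beside 16.7% of all probe sets. It held 1 in cultured against fresh cells, beside 16.3%, and 3 in cultured against tumor-free cells, beside 14.1%.

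The remaining lists held no called gene in any comparison (limma). Their counts at an unadjusted p under 0.05 stand beside 16.7%, 16.3% and 14.1% of all probe sets in the 3 comparisons. Among 5 other Bcl-2 family genes tested, 1, 0 and 0 had an unadjusted p under 0.05 in fresh against tumor-free, cultured against fresh and cultured against tumor-free cells, and the medians were 0.55, -0.11 and 0.37. The largest differences there were those of Bcl2l10 at 0.78 and 0.67 in fresh and in cultured against tumor-free cells, and of the guardian Bcl2l2 (Bcl-w) at 0.40 in cultured against fresh cells. Among 13 binding partners and mitochondrial membrane genes these counts were 0, 2 and 1, led by the co-chaperone Bag3 at 0.59, the channel Vdac2 at 0.79 and Hax1 at 0.64. The 10 apoptosome and caspase genes gave counts of 2, 0 and 0, led by Casp2 at -1.11, Casp6 at -0.44 and Casp2 at -0.69.

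For 6 caspase inhibitors the counts were 1, 2 and 1, led by Birc3 at 0.78, Birc2 at 1.15 and Birc5 (survivin) at -0.91. For 10 genes of the p53 pathway they were 4, 2 and 2, led by Gadd45b at 2.19, the p53 inhibitor Mdm4 at 1.55 (adjusted p = 0.0502) and the cell cycle inhibitor Cdkn1a at 1.87. Mdm4 passed in 9 of 24 alternatives, among them those without tumor-free 1 (adjusted p = 0.0328) and without cultured 3 (adjusted p = 0.00645). Cdkn1a varied widely within groups: it read 1990.42, 98.8 and 87.3 on the tumor-free arrays against 2524, 1372 and 274 on the cultured arrays. The Gadd45b probe set carries the suffix f, and its difference turned to -0.36 among the arrays of high spike-in signal.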

How the data were processed

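The deposited values are MAS5 signals (intensity on a linear scale, MAS5 per the submitters' processing notes) for 12488 probe sets on 9 arrays; the labels do not give its settings. Gene names came from the platform annotation: 10855 probe sets had 1 symbol, 396 several and 1237 were not listed; 10839 were matched to RefSeq GRCm38.p6. Probe sets with several symbols were not named.

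From these, log2(signal + 7.83) was computed, the offset being the 20th percentile. The 66 control probe sets were dropped, then the dimmest 30% by mean, which kept 8695. R 4.3.3 and limma 3.58.1 fitted 3 group means to all 9 arrays (6 residual degrees of freedom, variance trend), with two-sided p-values adjusted by Benjamini-Hochberg over the 8695 and a threshold of 0.05. The code was tested on simulated data. A gene is represented by its brightest probe set.

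Named genes are all member probe sets; from each of 9 pathway lists, per comparison, up to 4 called genes, or the 1 with the largest change where none was called; Itgam; and the 4 genes most like a called member. Values of Foxo3 beyond this rule, the array values of Cdkn1a and the named marker genes were chosen after they were seen. Members, pathway and marker lists were chosen with earlier results of these data known. The alternatives covered normalization, offset, filter, variance model, array weights, spike-in class, actin ratio, replicate block and arrays left out. The number of arrays limits the precision.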

Additional observations from a re-analysis of the deposited data

How the results depend on the processing

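Having 3 arrays per group limits precision. Counts of calls over all probe sets moved widely between settings, and the cause was not tested. Leaving out the least correlated array of each group, which makes the remaining arrays more alike by construction and leaves tumor-free status aligned with spike-in class, and the search of promoter windows were added after seeing the data, as was the running of the alternatives for the pathway genes. The probe sets called were 165 in fresh against tumor-free cells, 234 in cultured against fresh cells and 107 in cultured against tumor-free cells. In that order they numbered 3174, 1902 and 1389 with array weights, 277, 556 and 177 with a spike-in block, 422, 1045 and 456 within the high and 1975, 1377 and 1727 within the low class, 402, 441 and 204 with the actin ratio as a covariate, and 2141, 1368 and 1813 without the least correlated arrays. With only the 2 groups compared in the fit, cultured against tumor-free cells gave 14. Leaving out 1 array gave 62 (without fresh 2) to 624, 74 (without fresh 1) to 489 and 21 (without tumor-free 3) to 529, each highest without tumor-free 1.

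Member genes called in fresh against tumor-free cells, 1 as reported, were 3 with array weights and 3 without the least correlated arrays. With the median of the probe sets they were 0. Beside these, 3174 of 8695 probe sets passed with array weights and 2141 without the least correlated arrays. In cultured against fresh cells, 0 as reported, the count was 1 with median centring, the offset at the 40th percentile or the dimmest 50% left out. It was also 1 with the spike-in block, the actin covariate or only the 2 groups in the fit. With array weights it was 2, and 2 without the least correlated arrays, beside 1902 and 1368 of all probe sets. Leaving out 1 array gave 0 to 1. In cultured against tumor-free cells, 0 as reported, 4 were called with array weights and 4 without the least correlated arrays. Beside these, 1389 and 1813 of all probe sets passed. Leaving out 1 array gave 0 to 2. Member counts within a spike-in class are not given, because at least 1 group there is a single array.

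Whether replicate numbers pair the arrays is not known. The correlation of same-numbered deviations was between -0.200 and 0.259 over 9 pairs. Between fresh and cultured arrays it was 0.165, 0.029 and 0.259 for numbers 1 to 3. For fresh and cultured arrays of different numbers it ran from -0.282 to 0.227. With the replicate block the member genes called were 1, 1 and 0 and the probe sets called 200, 258 and 144; the gained gene was Bcl2l11 in cultured against fresh cells (-1.22, adjusted p = 0.0454), and no other member call changed under the block.

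Members not called in the model as reported changed sign as follows. In fresh against tumor-free cells Mcl1 was 0.073 with array weights and 0.14 without the least correlated arrays, Bcl2l1 -0.032 with the spike-in block and -1.43 within the high class, Bak1 -0.064 within the high class. Arrays of the low class alone gave Bcl2 98870_at -0.40, Bid 0.0065 and Bnip3 -0.093. In cultured against fresh cells Bcl2 98869_g_at was -0.15 with array weights and Mcl1 -0.29 within the low class. In cultured against tumor-free cells Bcl2l11 99418_at was -0.089 with the spike-in block, -0.52 within the high class and -0.12 with the actin covariate; Bcl2 98870_at was 0.33 and 98869_g_at 0.027 within the high class; Bcl2l1 was 0.31 within the low class and 0.045 without the least correlated arrays, and Mcl1 -0.41 within the low class. Among pathway genes, Gadd45b (fresh against tumor-free) was -0.36, Casp2 0.37 and Cdkn1a -0.096 (both cultured against tumor-free) within the high class, and Fos -0.011 and Birc2 -0.17 (both cultured against fresh) within the low class.

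Leaving out 1 array gave these ranges with a change of sign: in fresh against tumor-free cells Bcl2 98870_at -0.10 to 0.39, Bcl2l1 -0.30 to 0.76, Mcl1 -0.34 to 0.050 and Bak1 -0.050 to 0.14; in cultured against fresh cells Bcl2 98869_g_at -0.067 to 0.94, Bid -0.92 to 0.10 and Casp6 -0.76 to 0.0040; in cultured against tumor-free cells Bcl2 98870_at -0.31 to 0.11, Bcl2 98869_g_at -0.57 to 0.016, Bcl2l1 -0.92 to 0.13 and Bcl2l11 99418_at -0.31 to 0.38.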
